A study of Arabidopsis thaliana with 18 samples.

Results

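Backward tilt of the growth plate was compared with upright growth in the roots of both Arabidopsis thaliana ecotypes, Col-0 (Columbia) and WS (Wassilewskija), and the effect shared by the ecotypes was estimated. The comparison holds every array of the series at Agp 45° and at Agp 90°, where Agp is the angle of the growth plate. These are 12 of the 18 Affymetrix ATH1 arrays, with 3 arrays of Col-0 and 3 of WS at each angle. All groups are wild type roots of light-grown seedlings aged 8 days, preserved in RNAlater. Backward-tilted seedlings had 3 days of upright growth and then 5 days on a plate leaned back to 45°, with the plants above the medium. Upright seedlings stayed at 90° for all 8 days. The other 6 arrays, 3 per ecotype, came from plates tilted forward to 135° for the last 5 days and are used here as a second tilted group. Each array carried RNA pooled from several roots, so the p-values measure the spread between these arrays, and precision rests on how many arrays there are. Fewer cells of a type and less RNA per cell cannot be told apart in such whole-root RNA.

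A root that grows along a firm tilted surface is pressed onto it by gravity, and its path can then bend to one side (skewing) or swing from side to side (waving). The direction of growth depends on how cells of the elongation zone expand, which in turn rests on cortical microtubules and on enzymes that loosen or stiffen the cell wall. Expansins loosen walls, class III peroxidases can cross-link or cleave wall polymers, and proteins of the SPIRAL1 family bind microtubules and keep cell files straight in Arabidopsis. The comparison asks which transcripts change when the plate is leaned back, whichever the ecotype.

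Backward tilt mainly lowered transcripts. At an adjusted p under 0.05, 117 of 22746 probe sets changed, which is 0.514% of those tested. Of these, 99 were lower at Agp 45° (0.435%) and 18 were higher (0.0791%). The largest named falls were in AT5G44400, an FAD-binding berberine family protein, AT4G12490, a pEARLI1-like lipid transfer protein, AT2G33850 and the microtubule-associated SP1L2, all by 2.74-fold or more. Among named genes that passed the test, the largest rise was 1.62-fold. The median log2 difference was -0.68 over the 99 lower probe sets and 0.50 over the 18 higher ones, against 0.0034 over all probe sets.

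The test was limma's moderated test with ecotype as an additive term, fitted to log2(signal + 32), and p-values were adjusted over all 22746 probe sets. Folds are therefore on the log2(signal + 32) scale, which understates the change of dim genes. Before adjustment, p was under 0.05 for 1186 probe sets with a rise and 1321 with a fall, so falls outnumbered rises mostly among the probe sets that passed the adjusted test. With a log2 difference over 1 required as well, 17 probe sets passed (0.0747%), and all 17 were lower. At the methods' threshold, a log2 difference over 1 with an unadjusted p under 0.05, 19 were lower and 1 was higher (0.0879% in all). The number called moved with single arrays. It was between 44 and 61 without any one of the 6 WS arrays, 59 without Col-0 upright replicate 3 and 61 without Col-0 backward replicate 2, and in each of these fits lower calls outnumbered higher ones. The count with a log2 difference over 1 was between 11 and 20 in refits that left out 1 array, and the 11 came without Col-0 upright replicate 3.

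Of the 117 probe sets, 64 stand for 1 named gene each, 53 of them lower and 11 higher. A further 3 match more than 1 gene, and the annotation used here names none for 50. The largest fall of all was in 1 of the latter, with a size of 2.07 on the log2 scale. The falls were not confined to dim probe sets: the 99 had a median signal of 418, against 205 over all probe sets, and 5 had a mean signal under the pseudocount of 32.

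**Figure D1:**
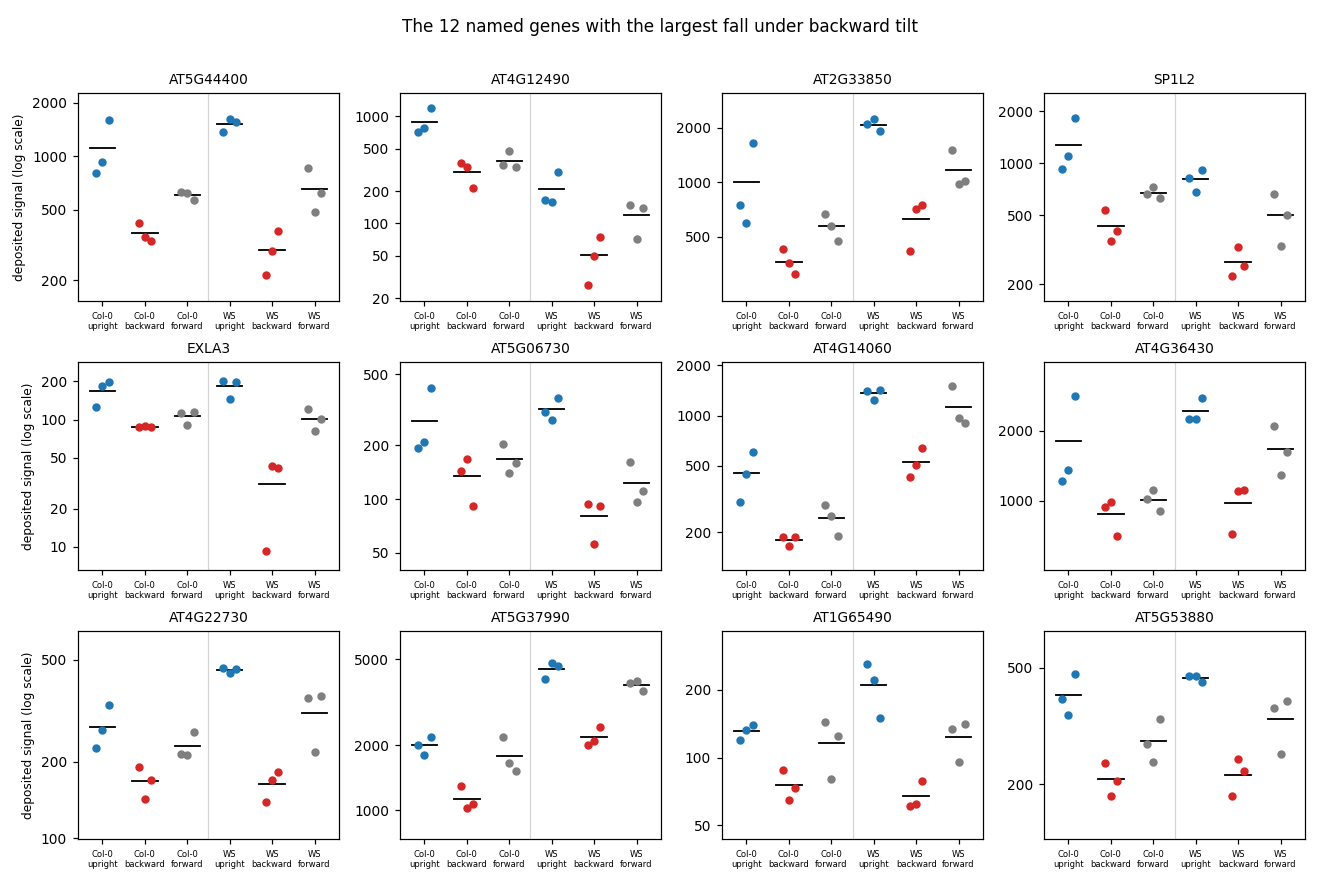
Deposited signal on a log axis in each array for the 12 named genes with the largest fall, grouped by ecotype and angle. Points are single arrays (blue upright, red backward, grey forward) and black lines are group means of 3 arrays. In each panel the red points of an ecotype lie below its blue points.

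Among the named genes, AT5G44400 fell the most. Its deposited signal was 805, 925 and 1594 in the upright Col-0 arrays and 421, 352 and 333 in the backward ones. In WS it was 1368, 1621 and 1547 upright and 215, 292 and 382 at Agp 45°. Every backward array was below every upright array of its ecotype, with WS showing the wider gap. The average fall was 3.57-fold (log2 -1.84, SE 0.19, adjusted p = 0.0015). Of the 12 berberine bridge enzyme family members with a named probe set, this was the 1 that passed the test, and the next lowest, AT5G44390, was at -0.56 (adjusted p = 0.204). The family's median was -0.07.

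AT4G12490 encodes a member of the pEARLI1-like lipid transfer proteins, small secreted proteins with a proline-rich stretch. In Col-0 it measured 714, 769.9 and 1187 upright and 362, 336 and 216 tilted back. In WS, where its level was several-fold lower, it measured 166, 157 and 301 upright and 26.4, 49.9 and 73.9 tilted back. The arrays separated fully by angle in both ecotypes, and the fall averaged 2.85-fold (log2 -1.51, SE 0.20, adjusted p = 0.00738). The other 5 members on the list used here did not pass, and lay between -0.24 and 0.28. AT4G12500, which neighbours AT4G12490 by locus number, stood at -0.24 (adjusted p = 0.655). That list is not the whole family: AZI1, which the study names for lipid transfer, is not on it.

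SP1L2 (AT1G69230) is a SPIRAL1-like protein. In Col-0 its signal went from 930.3, 1093 and 1823 in upright roots to 539.7, 357 and 408 in backward-tilted roots. In WS it went from 824, 679 and 916 to 225, 328 and 256. No backward array reached the lowest upright array of its ecotype, and the log2 difference was nearly the same in Col-0 (-1.47) and in WS (-1.44). The average fall was 2.74-fold (SE 0.16 on the log2 scale, adjusted p = 0.00236). It was the 1 called member on a list of 7 skewing and waving genes, where the median was -0.09. That list held only SPR1 and its SPIRAL1-like relatives, SKU5 and WAG2. WVD2, RHD3 and KNAT1, which the study also cites for skewing or waving, were not on it. SP1L2 was also the 1 called member among 15 tubulins and microtubule-associated proteins, where the median was 0.01. Its relatives SP1L5 (-0.34, adjusted p = 0.269), SPR1 (-0.11, adjusted p = 0.611), SP1L3 (-0.09, adjusted p = 0.72) and SP1L4 (-0.05, adjusted p = 0.918) did not pass. SKU5, whose loss makes Arabidopsis roots skew, stood at -0.05 (adjusted p = 0.844).

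EXLA3 (AT3G45960), an expansin-like protein, measured 127, 184 and 197 in upright and 87.4, 88.9 and 88 in backward Col-0 roots. In WS it measured 203, 146 and 198 upright and 9.24, 42.9 and 41.5 at Agp 45°. The fall was thus far deeper in WS (log2 -1.85, against -0.69 in Col-0), with an unadjusted p of 0.00317 and an adjusted p of 0.542 for the difference between ecotypes in limma's interaction. On average EXLA3 fell 2.41-fold (adjusted p = 0.028), and that call was lost in 8 of the 21 alternative settings that held its probe set, for example without Col-0 upright replicate 3 (adjusted p = 0.0677).

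EXLA1 (AT3G45970), the gene directly beside EXLA3, was also lower, at log2 -0.50 (SE 0.10, adjusted p = 0.0429). Its signals were 823, 764 and 625 upright and 554, 415 and 462 tilted back in Col-0, and 533, 503 and 545 and 417, 322 and 410.1 in WS. The angles did not overlap in either ecotype. Its call stood close to the threshold and was lost in 14 of 22 alternatives, among them each of the 12 that left out 1 array (adjusted p from 0.0501 to 0.116). EXLA1 and EXLA3 were the 2 called members among 19 expansins with a named probe set, and none was higher. EXLB1 (-0.50), EXPA8 (-0.38), EXLA2 (-0.37) and EXPA4 (-0.23) were lower at an unadjusted p only. The expansins had a median of -0.10, with -0.03 in Col-0 and -0.28 in WS, and 15 of the 19 had a negative difference.

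A pair of class III peroxidases fell, out of 8 on the list used here. That list is not the whole family: PER53 (AT5G06720), which the study names, is not on it. PER54 (AT5G06730) went from 194, 209.6 and 419 to 144, 168 and 91.7 in Col-0 and from 306, 278 and 370.4 to 93.7, 56.1 and 90.9 in WS. PER49 (AT4G36430) went from 1209.8, 1353 and 2840.4 to 935, 984 and 701 in Col-0 and from 2262, 2245 and 2787 to 715, 1096 and 1105 in WS. For both genes Col-0 upright replicate 3 was well above the other Col-0 arrays, and no backward array overlapped the upright arrays of its ecotype. The average fall was 2.35-fold for AT5G06730 (log2 -1.23, SE 0.21, adjusted p = 0.027) and 2.17-fold for AT4G36430 (log2 -1.12, SE 0.20, adjusted p = 0.028). Each call was lost in 10 of 22 alternatives, among them leaving out any single WS array for AT4G36430 (adjusted p from 0.0618 to 0.0793). The other 6 peroxidases on the list did not pass, and the list's median was 0.10, above that of all probe sets.

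AT2G01610, of the invertase and pectin methylesterase inhibitor family, fell 1.77-fold (log2 -0.82, SE 0.14, adjusted p = 0.0272). Its signals were 278, 333 and 412 upright and 188, 178 and 287 tilted back in Col-0, where 1 backward array overlapped the upright range. In WS they were 851, 718 and 891 and 299, 382 and 427, with no overlap. The call was lost in 11 of 22 alternatives, among them each of the 6 that left out a WS array. It was the 1 called member of the 6 pectin methylesterases and inhibitors, whose median was 0.0031. AT5G62330, which the study names for tilt, stood at 0.88 (adjusted p = 0.108) and did not pass. BGLU44 (AT3G18080), a glycoside hydrolase, was the 1 called member of 22 beta-glucosidases (log2 -0.62, SE 0.10, adjusted p = 0.0167). Its arrays read 526, 597 and 792 against 445, 428 and 401 in Col-0 and 765, 859.7 and 655 against 425, 411 and 489.7 in WS, again with no overlap. Of 10 xyloglucan endotransglucosylase/hydrolases, enzymes that cut and rejoin wall xyloglucan, none passed. At an unadjusted p, 3 of them were lower and 3 higher, and the nearest to the threshold was XTH32 (-0.40, adjusted p = 0.0704). XTH7 and XTH9, which the study names for backward tilt, were not among the 10.

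A pair of called genes outside those lists, chosen after their values were seen, were GH9B13 (AT4G02290), of the family of endo-glucanases, and TBL36 (AT3G54260), of a family that acetylates wall polysaccharides. GH9B13 went from 2005, 2039.8 and 2815 to 1678, 1376 and 1446 in Col-0 and from 3022, 3356 and 3162 to 1809, 1915 and 1898 in WS (log2 -0.68, SE 0.09, adjusted p = 0.00933). TBL36, among the brightest of the fallen genes, went from 3814, 3551 and 4158 to 3099, 2561 and 2950.4 and from 4835, 5218 and 6247 to 3206, 3445 and 3523 (log2 -0.57, SE 0.08, adjusted p = 0.00958). Both separated fully by angle, and both calls held in all 22 alternatives.

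**Figure D2:**
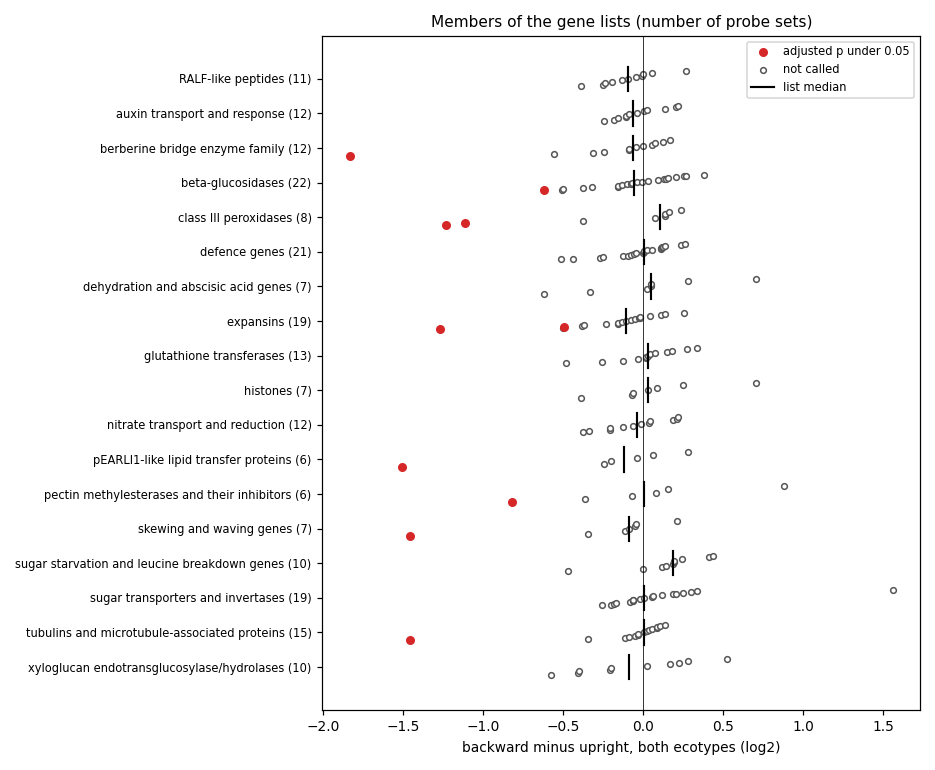
Log2 difference between backward and upright arrays, averaged over ecotypes, for the members of the 18 gene lists with at least 5 named probe sets. Filled red points passed the adjusted test, open points did not, and black bars are list medians. The red points lie at or near the left end of their lists, and the medians all sit between -0.12 and 0.19.

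AT4G14060 and AT1G14960 belong to the major latex protein and polyketide cyclase type, a fold that binds small lipophilic molecules. AT4G14060 was 304, 447 and 606 in upright and 189, 167 and 188 in backward Col-0 roots, and 1397, 1240.2 and 1429.5 and 427, 508 and 637 in those of WS. Tilted WS roots thus overlapped upright Col-0 roots, while within each ecotype the angles stayed apart. The fall was 2.32-fold (log2 -1.22, SE 0.14, adjusted p = 0.00236). AT1G14960 fell 1.79-fold (log2 -0.84, SE 0.14, adjusted p = 0.0218), a call lost in 6 of 22 alternatives, 5 of which left out 1 array.

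JAL22 (AT2G39310), a jacalin-related lectin, had one of the smallest errors among the leading genes. Its signal was 1779, 2118 and 2684 upright and 1243, 1216 and 1064 tilted back in Col-0, and 4898, 4656 and 5549 and 2431, 2645 and 2791 in WS. The drop had the same size in Col-0 (-0.88) as in WS (-0.93) within the standard error, and averaged 1.87-fold (SE 0.09, adjusted p = 0.00149). JAL34, JAL33 and JAL23 did not pass. With JAL22 they were all the named members of the list drawn up for jasmonate genes, so other jasmonate genes were not examined. The dirigent protein gene DIR13 (AT4G11190) measured 2527, 3200.3 and 2329.7 upright and 1876, 1762 and 1428 tilted back in Col-0, and 5768, 4963 and 4907 and 3197, 3025 and 2794 in WS. It fell 1.68-fold, for a log2 difference of -0.74 (SE 0.10, adjusted p = 0.00934). None of the 21 genes on the defence list passed, and their median was 0.0025. That list was matched partly by symbol, so it also holds PDF1A and PDF1B, which are not defensins.

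ATMPK13 (AT1G07880), a mitogen-activated protein kinase, was 359.8, 316 and 417 upright and 258, 219.8 and 264 tilted back in Col-0, and 354, 389 and 415 and 135, 162 and 179 in WS (log2 -0.80, SE 0.12, adjusted p = 0.0148). AT4G22730, a leucine-rich repeat protein kinase, was 225, 266 and 331 and 190.5, 143 and 169 in Col-0, and 463, 443 and 458 and 139, 169 and 182 in WS (log2 -0.95, SE 0.14, adjusted p = 0.0102). Neither gene overlapped between angles within an ecotype, and both had their deeper fall in WS. CLE41 (AT3G24770), chosen after its values were seen, encodes the precursor of a secreted signalling peptide that acts on vascular stem cells. It went from 1039, 1062 and 1083 to 813, 826 and 800.1 in Col-0 and from 353, 338 and 346 to 213, 159 and 215 in WS, with no overlap (log2 -0.54, SE 0.08, adjusted p = 0.0135).

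AT1G72140, a proton-dependent transporter of the NRT1/PTR family, read 401, 311 and 329 upright and 201, 221 and 181 tilted back in Col-0, and 419.7, 351 and 361 and 187, 143 and 176 in WS. The upright levels of the ecotypes were alike and so were the tilted ones (log2 -0.85, SE 0.10, adjusted p = 0.00236). AT5G17700, a MATE family efflux carrier, fell from 107, 119 and 139 to 78.5, 79.2 and 71.3 in Col-0 and from 387, 337 and 379 to 99.1, 145 and 136 in WS. Its log2 difference was -0.46 in Col-0 and -1.31 in WS, with -0.89 on average (SE 0.15, adjusted p = 0.0224), and that average was not called without any 1 of 5 WS arrays or without Col-0 upright replicate 3. None of the 12 genes on the list for nitrate transport and reduction passed, but AT1G72140 was not on that list, nor was any nitrate reductase.

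The rest of the 20 largest named falls were genes whose products the sources used here leave undescribed. AT5G37990 was among the most precise, with 1995, 1802 and 2175 upright and 1293, 1028 and 1071 tilted back in Col-0, and 4053, 4815 and 4656 and 1998, 2089 and 2417 in WS. Its levels in tilted WS roots overlapped those in upright Col-0 roots, and its log2 difference was -0.93 (SE 0.09, adjusted p = 0.00149). AT2G33850 read 749, 599 and 1653 and 427, 359 and 311 in Col-0, and 2093, 2227 and 1921 and 418, 709 and 745 in WS (log2 -1.48, SE 0.22, adjusted p = 0.0133). In Col-0 the upright arrays of AT2G33850 were widely spread, with replicate 3 far above the others. AT5G53880 (log2 -0.91, adjusted p = 0.0015), AT1G65490 (-0.92, adjusted p = 0.017) and AT4G29270 (-0.75, adjusted p = 0.0108) completed them.

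Some of the called genes lie side by side. In the gene order of the RefSeq annotation, 9 of the 64 called genes were within 10 protein-coding genes of another, and 6 formed 3 directly adjacent pairs, which were chosen after their values were seen. EXLA3 and EXLA1 are 1 such pair. AT1G65490 (-0.92) and AT1G65500 (-0.61) are another, and AT5G38020 (-0.74) and AT5G38030 (-0.44) the third, with AT5G37990 only 3 genes from AT5G38020. All of these were lower. AT3G13630 (0.70) and AT3G13650 (-0.69), 2 genes apart, moved in opposite directions. Neighbours were not counted for genes in general, so these counts do not show an excess among the called genes. Whether probes of neighbouring relatives share transcripts was not tested.

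Rises were smaller and fainter. The 11 named genes that passed ranged from 0.32 to 0.70 on the log2 scale. AT3G13630 was 14.7, 4.13 and 1.74 upright and 18.4, 31.8 and 14 tilted back in Col-0, and 2.77, 5.96 and 7.14 and 30.7, 45.3 and 38.3 in WS (SE 0.11, adjusted p = 0.0198). In Col-0 the brightest upright array was just above the dimmest backward one in the deposited signal, and the ranges parted after normalization, while in WS they were far apart. AT5G46440 (0.58, adjusted p = 0.0231), AT3G62180 (0.56, adjusted p = 0.0356) and AT3G58280 (0.50, adjusted p = 0.0399) were as dim. Each of these 4 genes had a mean signal under 32, where the fold depends most on the pseudocount.

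Brighter risen genes were AT3G07720, MYBC1, AT3G16800 and AT4G31080. AT3G07720 went from 830.1, 854 and 711 to 1539, 1288 and 1229 in Col-0 and from 612, 646 and 618 to 771, 806 and 759 in WS (log2 0.53, SE 0.09, adjusted p = 0.0266). MYBC1 (AT2G40970), a MYB-type transcription factor, went from 695, 709 and 578 to 834, 766 and 791 and from 519, 536 and 516 to 818, 743 and 688 (log2 0.39, SE 0.08, adjusted p = 0.0478). RAD9 (AT3G05480), a subunit of the DNA damage checkpoint clamp, went from 45.1, 40.9 and 58.7 to 71.6, 72.8 and 63.4 and from 31.3, 34.7 and 29.3 to 52.2, 59.7 and 50.2 (log2 0.41, SE 0.07, adjusted p = 0.0272). In all 3 the backward arrays were above the upright arrays of their ecotype. The rest were AT3G16800 (0.42), AT2G18750 (0.51), AT5G03560 (0.40) and AT4G31080, with adjusted p from 0.0365 to 0.0401. No call of a named rise held in all alternatives that could include it, whereas 19 of the 53 named falls kept theirs.

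**Figure D3:**
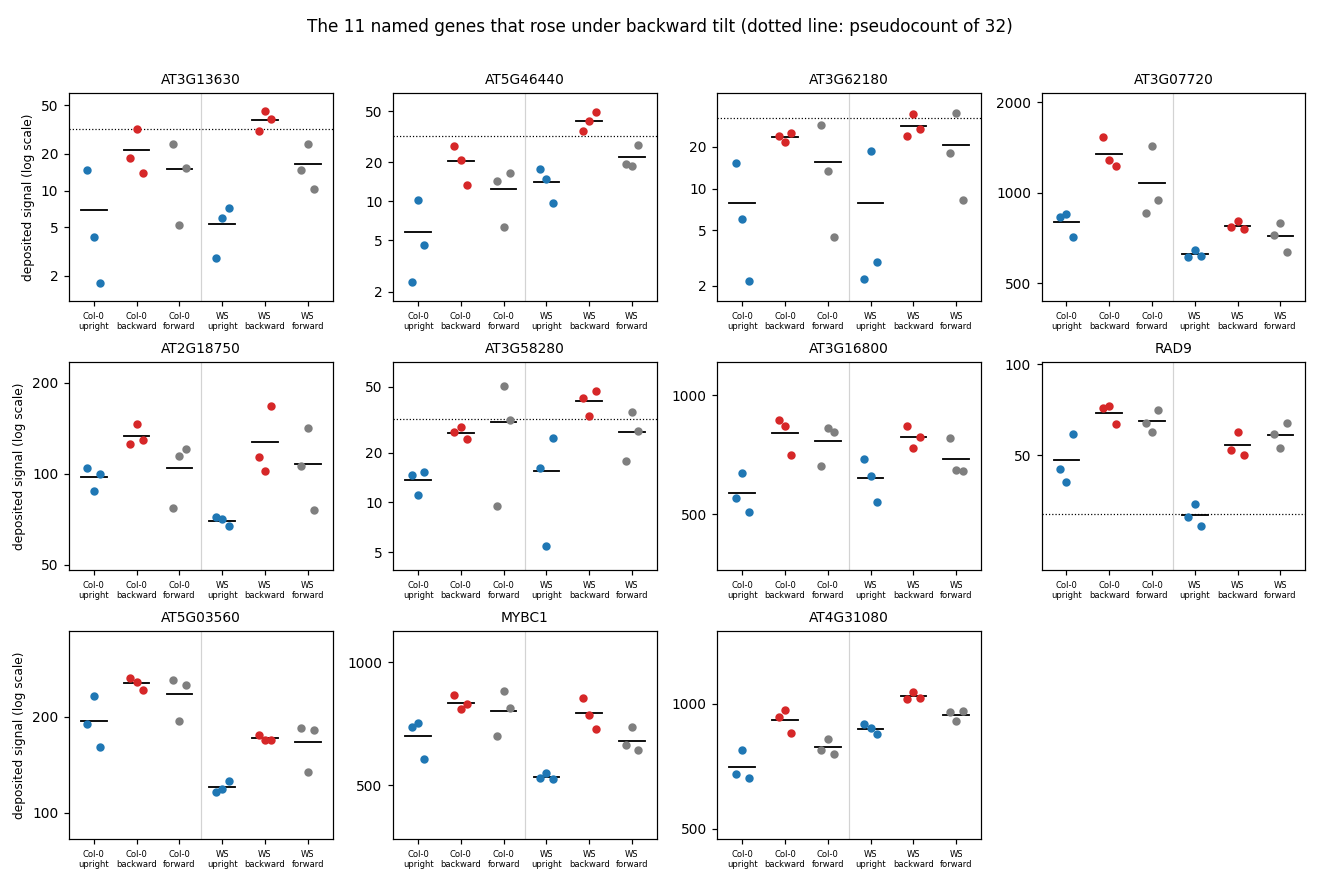
Deposited signal on a log axis in each array for the 11 named genes that rose, grouped by ecotype and angle, with single arrays as points (blue upright, red backward, grey forward) and group means of 3 arrays as black lines. The dotted line marks the pseudocount of 32, and 4 of the genes lie around or below it.

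Several genes that the study names for backward tilt did not pass the adjusted test of the average over both ecotypes. The study compared angles within each ecotype, by an unadjusted p and a fold threshold. Among these genes was SWEET11 (AT3G48740), a sugar efflux carrier that the study reports as higher under backward tilt in both ecotypes. It had the largest positive average of any named gene, but its upright Col-0 arrays were 438, 815 and 102. These overlapped the backward Col-0 arrays at 626, 1013 and 874. In WS it went, without overlap, from 576, 353 and 444 to 1844, 1344 and 2505. The average was 1.56 (SE 0.36, unadjusted p = 0.000944, adjusted p = 0.102), which is past the methods' threshold, and it was called without Col-0 upright replicate 2 (adjusted p = 0.0193). On the list of sugar transporters and invertases, the 19 named members were all sugar transporters, so no invertase was examined there. None of them passed, and their median was 0.0074. AT5G62330 was 99, 107 and 123 and 99.5, 164 and 209.6 in Col-0, and 103, 144 and 71.6 and 367, 266 and 298 in WS. Within WS it was called, at 1.38 (adjusted p = 0.0238), while in Col-0 it stood at 0.39. HIS1-3 (AT2G18050), a linker histone, varied over several-fold within upright Col-0 (288, 769.7 and 101) and stood at 0.71 (SE 0.34, adjusted p = 0.478). OCT1 (AT1G73220), an organic cation and carnitine transporter, stood at -0.80 (SE 0.32, adjusted p = 0.369). Other genes that the study names for backward tilt, among them ASN1, DIN2, SWEET12, XTH9 and AZI1, were not examined by name.

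No member passed in the lists for auxin transport and response (12 genes, all Aux/IAA or GH3 genes, median -0.06), glutathione transferases (13, 0.03), RALF-like peptides (11, -0.09), sugar starvation and leucine breakdown (10, 0.19), dehydration and abscisic acid (7, 0.05) or histones (7, 0.03). ASN1 and DIN2 were not on the sugar starvation list. Apart from the jasmonate list, whose named members were all jacalin-related lectins, the lists with fewer than 5 named members had no call. The MATE efflux list held 1 gene and did not include the called MATE carrier AT5G17700. Auxin carries the growth signal in root bending, and on its list only IAA18 (0.20) was past an unadjusted p of 0.05. No auxin carrier was on that list, so auxin transport was not examined. Just inside the threshold over all named genes were AT1G65900 (adjusted p = 0.0491) and AT5G52220 (0.0498), and just outside it AT1G71695 (0.0514) and AT5G48570 (0.0538), named here for that place alone.

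The ecotypes can be set side by side because they share no array. All 99 probe sets called lower on average had a negative difference in both ecotypes, and all 18 called higher a positive one, as calling on the average favours. The 99 had a median of -0.56 in Col-0 and -0.77 in WS, and the larger fall was in WS for 80 and in Col-0 for 19. Over all 22746 probe sets, the difference of larger size, in either direction, was in WS for 12529 and in Col-0 for 10217. Backward and upright arrays did not overlap in either ecotype for 93 of the 99 and for 17 of the 18, while 1.94% of all probe sets separated in this way (1.19% lower, 0.756% higher). The calls were made on these same arrays, which favours such separation, so it is no separate support for them. The interaction of ecotype and angle was called for 0 probe sets (limma, smallest adjusted p = 0.194), with 1613 at an unadjusted p under 0.05 (7.09%). Among the 117 called probe sets 21 were below that unadjusted p, so a smaller effect in Col-0 is not shown for any gene, nor are equal effects.

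Fitted within each ecotype, backward tilt gave 165 calls in WS (0.725%), 137 lower and 28 higher, and 0 in Col-0 (smallest adjusted p = 0.0513, 1543 at an unadjusted p under 0.05). The WS count was the least stable number here. It was 19 without WS upright replicate 3, 20 without WS upright replicate 1, 33 without replicate 2 and 35 without WS backward replicate 1, and it was 60 and 103 without the other WS backward arrays. Leaving out 1 Col-0 backward array at a time gave 86 to 101, since both ecotypes share the estimate of spread. Fitted on its own 6 arrays WS gave 10 calls and Col-0 still gave 0.

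Of the 137 probe sets called lower in WS, 127 (92.7%) were also lower in Col-0, against 51.2% overall. In Col-0, 77 of them (56.2%) were lower with an unadjusted p under 0.05, against 3.4% of all. For the 28 called higher in WS, 19 (67.9%) were higher in Col-0, against 48.8% of all, and 5 (17.9%) passed the unadjusted p, against 3.38%. When each ecotype was instead fitted on its own arrays, 477 probe sets were lower in WS by over 0.5 at an unadjusted p under 0.05. Of these, 116 (24.3%) were lower at an unadjusted p in Col-0, against a background of 3.57%, and for 256 higher ones the share was 8.59%, against 3.35%. Over all 22746 probe sets the log2 differences of the ecotypes had a Pearson r of 0.209 and a Spearman rho of 0.123. Probe sets are not replicates of the treatment, and no test was made of these coefficients.

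**Figure D4:**
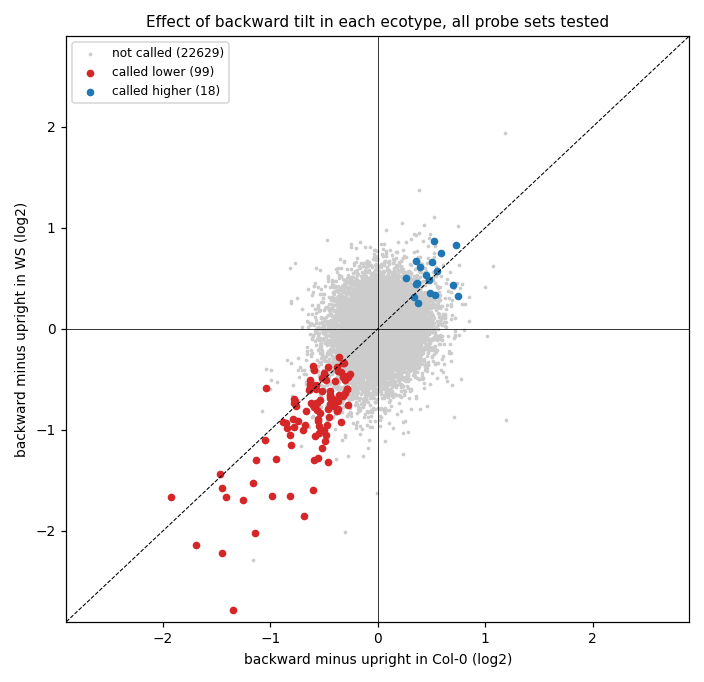
Log2 difference between backward and upright arrays in Col-0 (x axis) and in WS (y axis) for 22746 probe sets, from the fit with 4 group means. Red points are the 99 called lower and blue points the 18 called higher on the average, which is not independent of either axis, and the dashed line marks equal effects. Most red points, 80 of 99, lie on the side of the larger fall in WS. Over all 22746 probe sets the difference of larger size was in WS for 12529.

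In the additive fit, the ecotype term over backward and upright arrays together, WS against Col-0, was called for 49 of the 99 lower probe sets, against 19.5% of all, with WS higher in 38 and Col-0 higher in 11. The widest gaps among those named were in AT5G38020, AT4G12490, AT3G26460 and CLE41, of which all but AT4G12490 were chosen after their values were seen. AT5G38020 was 2.31 higher in WS on the log2 scale, with 1005, 1144 and 1342 in upright Col-0 and 5393, 5446 and 6189.8 in upright WS. Tilted back it was 823, 701 and 499.6 and 3341, 3490.4 and 3827, so that the fall of -0.74 (adjusted p = 0.0102) was small beside the ecotype gap. AT3G26460 was 1.71 higher in WS and fell by a log2 difference of -0.69 (adjusted p = 0.0167). AT4G12490 went the other way, at -1.99 for WS minus Col-0, as did CLE41 at -1.68.

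Forward tilt, applied to other seedlings of the same ecotypes, was the second tilted angle. On average over ecotypes, forward against upright was called for 0 probe sets (limma, smallest adjusted p = 0.0546, 2203 at an unadjusted p under 0.05). It uses the same upright arrays as backward tilt, so the values are only set side by side. SP1L2 was at -1.45 under backward and -0.77 under forward tilt, and AT5G44400 at -1.84 and -0.98. AT1G72140 was at -0.85 and -0.12, and AT1G14960 at -0.84 and 0.49. The 99 lower probe sets had a median of -0.31 under forward tilt.

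**Figure D5:**
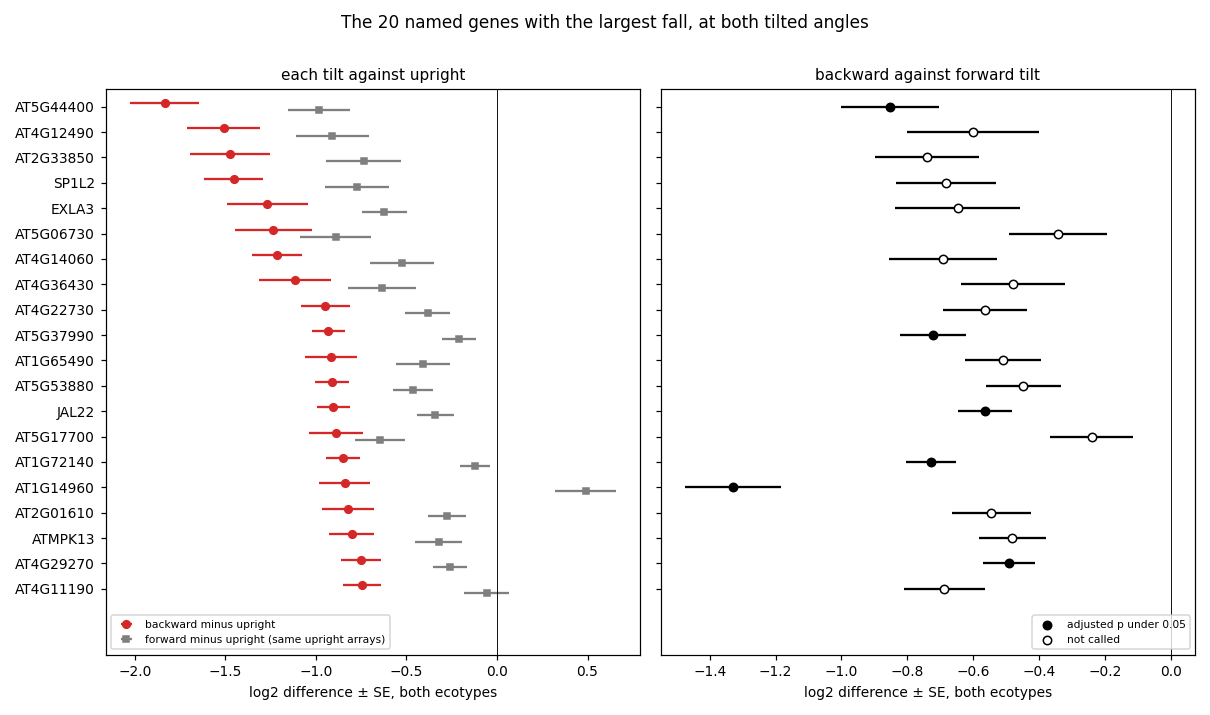
Log2 differences with standard errors for the 20 named genes with the largest fall. The left panel sets backward minus upright (red circles) beside forward minus upright (grey squares), which share upright arrays, and the right panel gives backward minus forward, with filled points where the adjusted p was under 0.05. The genes were picked for their fall in the same backward arrays, which favours negative values in the right panel too. The 6 filled genes are AT5G44400, AT5G37990, JAL22, AT1G72140, AT1G14960 and AT4G29270.

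Backward against forward tilt, tested on the tilted arrays without the upright ones, called 42 probe sets (0.185%), 30 lower at Agp 45° (0.132%) and 12 higher (0.0528%). The count fell to between 19 and 27 without any one of 7 arrays (WS backward replicates 1 and 2, WS forward replicates 1 and 3, Col-0 backward replicates 2 and 3 and Col-0 forward replicate 3). The named falls were picked on the same backward arrays, which favours a negative difference here. Among them AT1G14960 had the widest gap. It was 332, 455 and 399.9 backward and 1090.3, 706 and 724 forward in Col-0, and 594, 460.1 and 502 and 1782, 1843 and 1507 in WS. Its upright arrays, at 974, 642 and 543 in Col-0 and 1099.6, 1118 and 810.4 in WS, lay above the backward arrays and, in WS, below the forward ones. The backward minus forward difference was -1.33 (SE 0.15, adjusted p = 0.00404).

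AT1G72140 was 387, 322 and 302 forward in Col-0 and 333, 324 and 317 in WS, within or near the upright range and above all backward arrays (backward minus forward -0.73, SE 0.08, adjusted p = 0.00404). AT5G37990 differed by -0.72 (adjusted p = 0.0127), JAL22 by -0.56 (adjusted p = 0.0178) and AT4G29270 by -0.49 (adjusted p = 0.0287). AT5G44400, with 632, 622 and 564 forward in Col-0 and 861, 484 and 617 in WS, lay between its upright and backward arrays (backward minus forward -0.85, adjusted p = 0.0442). SP1L2 was likewise intermediate, at 666, 729 and 626 and 667, 334 and 500.2, but its difference of -0.68 (SE 0.15, adjusted p = 0.145) did not pass.

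Some genes differed between the tilted angles without a call against upright, and were chosen after their values were seen. AT2G25150, an HXXXD-type acyltransferase, was 37.3, 28.4 and 38.7 backward and 101, 73.8 and 64.3 forward in Col-0, and 36.1, 36.2 and 25 and 121, 124 and 146 in WS (backward minus forward -1.01, SE 0.13, adjusted p = 0.00796). The angles did not overlap in either ecotype. AT3G19430, related to late embryogenesis abundant proteins, ran the other way, with 226, 273 and 258 backward and 145, 123 and 70.7 forward in Col-0, and 468, 423 and 712 and 135, 129 and 211 in WS (backward minus forward 1.30, SE 0.18, adjusted p = 0.0125). AT1G50060, a putative pathogenesis-related protein, was higher at Agp 45° by 1.19 (adjusted p = 0.0256). The consecutively numbered AT1G52050 (0.82, adjusted p = 0.00404), AT1G52060 (1.21, adjusted p = 0.00404) and AT1G52070 (0.96, adjusted p = 0.016) were higher together. Against upright they stood at 0.58, 0.59 and 0.51, with adjusted p from 0.0713 to 0.243.

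The arrays themselves were alike. Median signals were between 193.5 and 205.9 in the 12 arrays, and array pairs correlated at 0.986 to 0.992 within a group, 0.984 to 0.99 between angles and 0.968 to 0.976 between ecotypes. The actin 3' to 5' ratio, a sign of RNA quality, was 3.86 to 4.76 in backward and 3.85 to 6.06 in upright arrays (exact two-sided permutation within ecotypes, p = 0.3, adjusted over 6 ratios 0.72). The highest ratios were in Col-0 upright replicate 2 and WS upright replicate 3. Without these arrays 71 probe sets were called, 60 lower and 11 higher, of which 58 were among the 117. The effect within WS then gave 1 call, in the fit with 4 group means that also holds the Col-0 arrays. Of the cell type markers only those of root hair (2 of 7), cortex (2 of 3), dividing cells (1 of 8) and lateral root founders (3 of 4) had a named probe set. None was called, and their summed signals overlapped between angles, for root hairs at 711 to 1472 backward and 841 to 1652 upright. Markers of endodermis, xylem, phloem, root cap and shoot had no named probe set, so the part of these cells in the falls was not tested.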

How the data were processed

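RNA from Arabidopsis thaliana roots was hybridised to 18 Affymetrix ATH1 arrays, 3 per ecotype and angle, and the angles compared are those named in the labels. The deposited values were intensities: MAS5 signals from Affymetrix Expression Console, which the authors scaled so that each array had a trimmed mean of 500. Versions of these tools are not given in the sources used here. The deposited detection p-values were not used.

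Signals were transformed to log2(signal + 32), where 32 is the pseudocount, and quantile normalized over the 18 arrays, so all fold changes are on that scale. After 64 control probe sets were left out, 22746 probe sets were tested. Of these, 13513 had 1 gene in the platform annotation, 503 had several and 8730 had none, and 13436 of the named ones matched the RefSeq gene table. Different probe sets of a gene, present for 144 genes, were kept apart. Linear models were fitted with limma 3.58.1 in R 4.3.3 to the 12 compared arrays, with angle and ecotype as additive terms (9 residual and 3.5 prior degrees of freedom). The Benjamini-Hochberg adjustment of moderated p-values ran over all probe sets. The interaction and the effects within each ecotype came from a fit with 4 group means. The code was tested on simulated data.

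Named were the called genes with the 20 largest falls and the 20 largest rises (11 passed), every called member of the gene lists, members of lists described in full and genes the study names for backward tilt. The gene lists and the comparison itself were chosen with earlier results of these data known. Alternatives changed the pseudocount (1 or 100), the normalization, the filter on dim probe sets (the dimmest 40% left out), the variance model and the arrays in the fit, including a replicate block. Replicate numbers did not pair the arrays. A planned search of promoter motifs was not run, and no sequences are shown.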

Additional observations from a re-analysis of the deposited data

How the results depend on the processing

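The common effect of backward tilt, 117 probe sets, kept its excess of falls in every alternative run. It gave 53 calls with a pseudocount of 1 (3 higher, 50 lower), 176 without the dimmest 40% of probe sets (36 higher, 140 lower), 207 from all 18 arrays with 6 group means (37 higher, 170 lower) and 71 without both arrays of the highest actin ratio (11 higher, 60 lower). Leaving out 1 array at a time gave 44 to 152 calls. The count with a log2 difference over 1, which was 17, ranged from 11 to 20 in these refits. At the methods' threshold 20 became 371 with a pseudocount of 1 (159 higher, 212 lower) and 19 to 23 without single arrays. The WS count of 165 became 36 with a pseudocount of 1, 248 without dim probe sets, 1 without the high-actin arrays and 19 to 172 without single arrays. It was 10 when WS was fitted on its own 6 arrays, an alternative chosen after seeing the data. The Col-0 count of 0 became 3 with a pseudocount of 100, 1 without quantile normalization, 1 with quantile normalization over the compared arrays, 13 without dim probe sets, 7 with an intensity trend, 5 from all 18 arrays and 0 to 1 without single arrays. The interaction gave 1 call without dim probe sets, 1 with the trend and 0 to 2 without single arrays. Backward against forward, at 42, gave 23 with a pseudocount of 1, 86 without dim probe sets, 65 from all 18 arrays and 19 to 44 without single arrays. Forward against upright gave 3 with a pseudocount of 1, 1 with a pseudocount of 100, 2 without dim probe sets, 1 from all 18 arrays and 0 to 2 without single arrays. Fewer probe sets or arrays change the adjustment by construction, and otherwise the cause was not tested. Of the 64 named called genes, 19 kept their call in every alternative that held their probe set, all of them falls, and none changed direction.

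Same-numbered arrays did not deviate together (median r 0.0048 over 18 pairs, lowest -0.0491, highest 0.146), and only 5 of 12 arrays correlated best with their own number. With a replicate block the common effect gave 92 calls, 84 of them among the 117, with 18 at a log2 difference over 1 and 20 at the methods' threshold. The block gave 108 calls in WS, 1 in Col-0, 0 for the interaction, 28 for backward against forward and 0 for forward against upright. Precision is limited by 3 arrays per group, and dim probe sets, with signals near the pseudocount, have understated folds.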
